A study of Mus musculus with 6 samples.

Results

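Megakaryocyte and platelet genes were followed in sorted mouse bone marrow stem and progenitor cells that differ in the DNA repair gene Ercc1. The set held 10 genes chosen by name: Itga2b, Itgb3, Gp9, Gp1bb, Pf4, Vwf, Selp, Plek, Rab27b and F2r. A probe set (a group of short array probes read as 1 signal) belonged to a gene only if that gene's symbol was the sole one in the platform annotation. This gave 20 probe sets for the 10 genes, of 18193 genes with a probe set of their own and 45037 probe sets that were not controls. The probe set with the highest mean signal is called the main one of its gene. The cells were LSK cells, which lack lineage markers and carry Sca-1 and c-Kit on their surface. All mice were F1 offspring of C57BL/6 and FVB/n parents. The 3 Ercc1-deficient samples (-/d) carried 1 knockout and 1 truncated allele. The 3 Ercc1-proficient samples were litter mates, +/+ in litters 1 and 2 and +/d in litter 3. Litter 1 was 22 weeks old and litters 2 and 3 were 20 weeks old. The labels name no treatment and do not say whether a sample held cells of 1 mouse or of several.

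Megakaryocytes are the large marrow cells that shed platelets. Their surface carries the integrin αIIbβ3 (Itga2b and Itgb3), which binds fibrinogen, and the glycoprotein Ib-IX-V complex (with Gp1bb and Gp9), which binds von Willebrand factor. Their alpha granules store von Willebrand factor (Vwf), platelet factor 4 (Pf4) and P-selectin (Selp). Some blood stem cells already carry RNA of Vwf, Itga2b, Selp and Pf4, and such cells are known to be biased toward the platelet lineage. P-selectin and von Willebrand factor are also stored by endothelial cells.

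The set did not move as a block. By main probe sets, Selp, the gene of P-selectin, was higher in Ercc1-deficient cells of all 3 litters. By this probe set it was the 1 member gene that passed the test, and its other probe sets did not pass. Pf4 was also higher in all 3 litters, while Itgb3, Vwf and Plek were lower in all 3 litters, and none of these 4 passed. The other 5 genes, Itga2b, Gp9, Gp1bb, F2r and Rab27b, differed in direction between litters. Differences were tested with limma on log2(signal + 30) with litter as a block, and a probe set was called at an adjusted p (Benjamini-Hochberg, over all 22519 probe sets tested) under 0.05. Of the 17 member probe sets bright enough to be tested, 1 was called, where 0.835% of all tested probe sets were called; it was higher, as were 0.315% of all, and none was lower, against 0.52%. At an unadjusted p under 0.05 (limma) there were 4 of 17, against 11.5% of all tested, and without a litter term 3 of 17, against 2.57%. Both counts hold more than 1 probe set of Selp. By main probe sets, 3 of 10 genes were under 0.05 with litter as a block, against 12.1% of all genes tested. Deficient and proficient arrays did not overlap for 2 of the 17 (7.19% of all tested), and 6 of the 17 had 1 direction in all 3 litters (28.3% of all). Of the 10 main probe sets 4 were above 0, against 46.8% of those of all genes. The median log2 difference was -0.07 over the 10 main probe sets, and -0.02 over the main probe sets of all genes tested.

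The sequences of 3 promoters are shown for the called gene (Selp), for the member whose window held both motifs searched (Pf4), and for the αIIb integrin gene, which was not called (Itga2b). Each runs 5′ to 3′ on the gene's own strand, from 250 bases before to 50 bases after the gene's start, and is taken from RefSeq (GRCm38.p6). Capitals mark AGATAA, a motif of GATA factors, and AGGAAG, a motif of ETS factors; both strands were searched, so a match on the other strand reads TTATCT or CTTCCT. No 2 matches overlapped in these windows.
Selp, chr1:164115014-164115313 on the plus strand: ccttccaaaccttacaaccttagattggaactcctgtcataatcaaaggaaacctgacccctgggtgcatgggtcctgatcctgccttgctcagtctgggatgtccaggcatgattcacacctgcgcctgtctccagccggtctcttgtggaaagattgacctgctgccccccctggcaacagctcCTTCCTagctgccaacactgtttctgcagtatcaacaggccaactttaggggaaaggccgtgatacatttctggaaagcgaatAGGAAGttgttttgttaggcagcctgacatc
Pf4, chr5:90772185-90772484 on the plus strand: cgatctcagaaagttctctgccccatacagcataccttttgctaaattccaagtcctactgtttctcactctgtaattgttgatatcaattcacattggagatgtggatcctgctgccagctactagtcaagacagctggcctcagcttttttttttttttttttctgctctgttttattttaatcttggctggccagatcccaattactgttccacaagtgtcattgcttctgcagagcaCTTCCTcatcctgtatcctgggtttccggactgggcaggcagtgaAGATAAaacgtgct
Itga2b, chr11:102469834-102470133 on the minus strand: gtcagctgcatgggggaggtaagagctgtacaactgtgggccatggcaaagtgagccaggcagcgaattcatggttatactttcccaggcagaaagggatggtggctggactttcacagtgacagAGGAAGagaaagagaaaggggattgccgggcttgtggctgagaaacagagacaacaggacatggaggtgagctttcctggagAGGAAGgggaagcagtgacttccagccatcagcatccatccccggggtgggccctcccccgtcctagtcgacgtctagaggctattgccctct

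Promoter windows were matched for 7 of the 10 members. AGGAAG was found in 5 of them (Selp, Pf4, Itga2b, Gp9 and Gp1bb), where 35.4% of all 32851 windows of that length held it. AGATAA was found in 1 of them, Pf4, where 11.2% of all windows held it, and both motifs together were in 4.05% of all windows. With the gene's start as position 0, the matches of Selp began at -64 and 19, those of Itga2b at -125 and -43, and those of Pf4 at -9 (AGGAAG) and 36 (AGATAA). Gp9 had its match at -16 and Gp1bb at 20. A match describes letters in the window and does not show binding. Selp and Itga2b each had 2 matches of AGGAAG and none of AGATAA, although 1 was called and the other was not.

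Each of the 6 arrays held a signal for every probe set, with a lower limit (floor) of 30, and between 52.3% and 58.6% of signals lay at that floor. Ercc1 itself gave signals of 79.9, 34.5 and 44.9 on the deficient arrays of litters 1, 2 and 3 and of 128, 244 and 176 on those of their proficient litter mates (limma, adjusted p = 0.0138). The number of arrays, 3 per group, limits the precision of every comparison. Kit, the defining surface gene of these cells, and Cd34 were above the floor on all 6 arrays. Of genes of mature lineages, Cd79a, Cd4 and Itgam were at the floor on all 6 arrays. On the B and T cell list, however, 5 of 7 genes with a probe set were tested, and none was called. Ebf1 was above the floor on every array, from 53.7 to 505, and Cd3d was at the floor on 2 arrays. Of 9 erythroid genes Hba-a1 and Alas2 were at the floor on all 6 arrays, but 7 were tested and none was called. Klf1, Car1, Car2, Tfrc, Aqp1 and Ermap were above the floor on every array. The erythroid list summed to 2666, 4985 and 3610 in deficient and 2704, 6536 and 4963 in proficient cells of litters 1, 2 and 3. The deficient sum was thus lower in each litter, but only slightly in litter 1. In that litter Klf1, Car1, Epor and Ermap were higher in the deficient array, and Car2, Tfrc and Aqp1 were lower. Granulocyte genes, however, had high signals and moved with genotype: all 11 tested genes of the 13 on that list were above 0 in their log2 difference and 6 were called higher. In bulk samples, fewer cells of a type and less RNA per cell cannot be told apart.

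**Figure D1:**
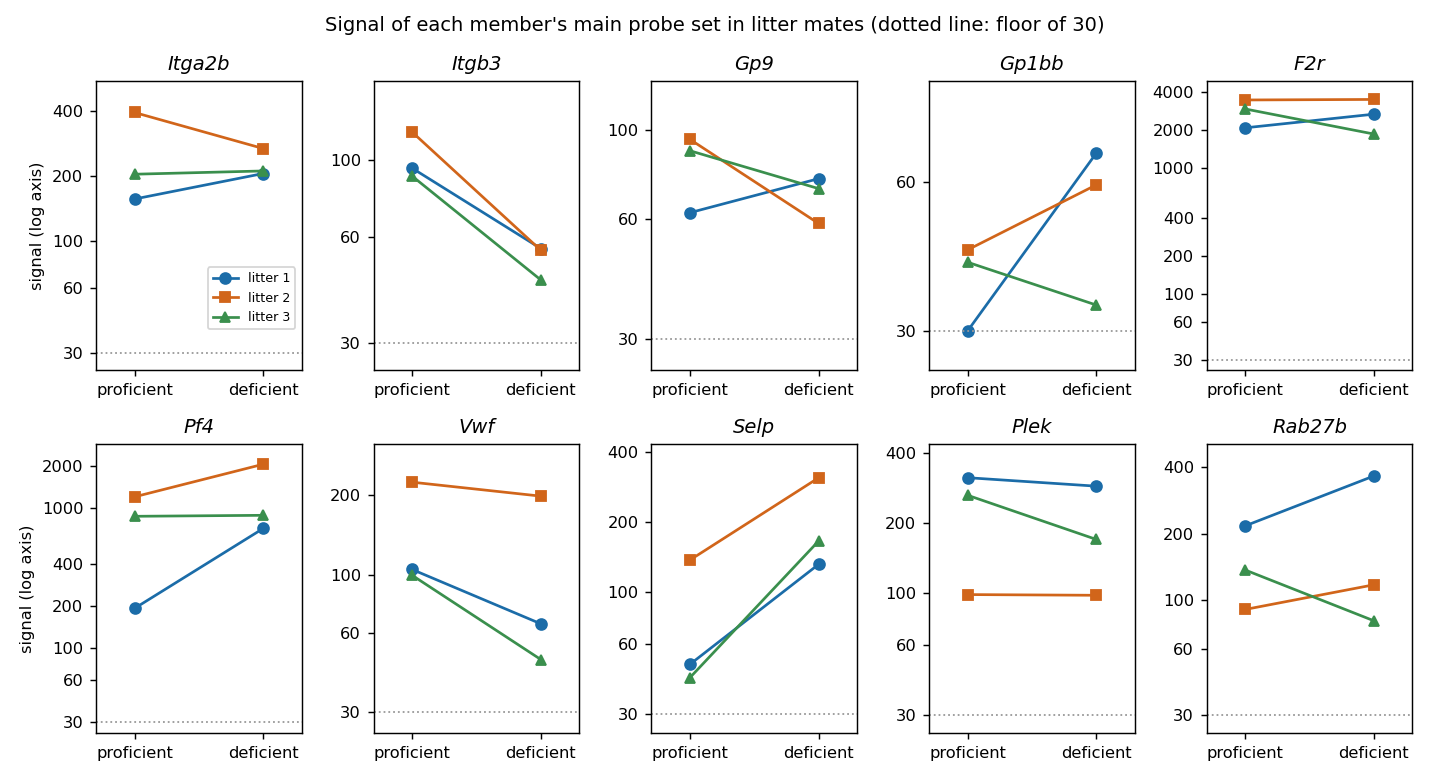
Signal of the main probe set of each of the 10 genes (log axis) on the proficient and the deficient array of each litter, joined by a line per litter; the dotted line is the floor of 30. Selp was higher and Itgb3 lower in the deficient array of every litter, and the line of litter 2 lay highest for Pf4, Vwf, Selp and F2r.

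Of the genes of proteins stored in platelet granules, Selp rose, Pf4 was higher without passing and Vwf was lower without passing. P-selectin moves from the alpha granule to the surface when a platelet is activated and binds leukocytes. By its main probe set, whose name ends in x_at, Selp read 132, 309.6 and 166 on the deficient arrays of litters 1, 2 and 3, and 49.1, 138 and 43.1 on the proficient ones. The deficient array was the higher one in each litter, by 2.68-fold, 2.25-fold and 3.85-fold, although the proficient array of litter 2 was above the deficient array of litter 1. Group means were 202 ± 94.3 and 76.6 ± 52.9 (SD, n = 3 each), and the log2 difference of 1.16 (95% confidence interval 0.67 to 1.65) passed the test within litters (limma, adjusted p = 0.0163).

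Selp was measured by another 2 probe sets, which did not give the same size of difference. The second had signals of 162, 202 and 108 in deficient and of 83.3, 91.1 and 63.7 in proficient cells. Every deficient array was above every proficient one here, which held for 2.3% of all tested probe sets, and the log2 difference was 0.75 (interval 0.26 to 1.24; limma, adjusted p = 0.172). The third had signals of 111, 113 and 75.5 in deficient and of 72.3, 131 and 52.2 in proficient cells. In litter 2 it was lower in deficient cells, with a log2 difference over litters of 0.22 (interval -0.28 to 0.71; limma, adjusted p = 0.764). The ending x_at of the main probe set marks probes that may match other sequences too, and the annotation gave no accession for it. On the proficient arrays its mean was the lowest of the 3, at 76.6 against 79.4 for the second and 85.1 for the third. Its place as the main probe set, by mean over all 6 arrays, thus came from its deficient signals. Averaged over its 3 probe sets, the log2 difference of Selp was 0.71 and was not called (limma, adjusted p = 0.204). The main probe set was not called without a litter term (limma, adjusted p = 0.9998), when probe sets at the floor were tested too (0.942), or when litter 1, 2 or 3 was left out (0.718, 0.687 and 0.615 by limma), where its log2 difference lay between 1.03 and 1.23.

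Endothelial cells also store P-selectin. Of 11 endothelial genes with a probe set, Tie1 and Sele were at the floor on all 6 arrays, Cdh5, Pecam1, Emcn and Cldn5 were at it on 5, and 6 were tested. The summed signal of the 11 genes was 505 to 778 in deficient and 760 to 1086 in proficient cells, lower in the deficient array of all 3 litters. By group mean, the largest signals in it were those of Egfl7 (110 to 491 over the arrays), Esam and Eng. None of the 6 tested genes was called. Granulocyte genes moved the same way as Selp: the summed signal of 12 genes was 18376 to 109400 in deficient and 4101 to 36175 in proficient cells, with Itgam at the floor on all arrays. Bacterial and phage RNA controls added to each sample (18 probe sets) had a mean log2 signal of 12.75, 12.03 and 11.90 in deficient and of 11.57, 11.91 and 11.72 in proficient cells of litters 1, 2 and 3. They too were higher in the deficient array of each litter, as was 18S ribosomal RNA, at a mean log2 signal of 7.26, 10.39 and 11.80 against 7.21, 9.51 and 11.15. The part of endothelial genes, granulocyte genes, added controls and ribosomal RNA in the Selp difference was not tested.

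Pf4 is a chemokine that platelets release in bulk and a standard marker of the megakaryocyte lineage. It read 716, 2054 and 888 on the deficient arrays of litters 1, 2 and 3, and 193, 1203 and 874 on the proficient ones. The deficient-over-proficient ratio was 3.71 in litter 1, 1.71 in litter 2 and 1.02 in litter 3, so the litters differed in size though not in direction. The groups overlapped, with means of 1219 ± 728 and 757 ± 515 (SD, n = 3 each). The log2 difference was 0.84 (95% interval 0.29 to 1.39) and was not called (limma, adjusted p = 0.174). It was called when each array was centred on its median (limma, adjusted p = 0.0387) and was 0.39 without litter 1. That litter also had the largest 3′ to 5′ differences of the Gapdh control, 4.71 log2 units in its deficient and 3.64 in its proficient array, against 2.30 to 2.99 elsewhere. For the Actb control they were 4.97 and 4.05 in litter 1 and 3.30 to 4.43 elsewhere, so that its proficient array did not stand apart. The part of RNA integrity in the Pf4 difference was not tested.

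Vwf encodes the adhesive multimer that tethers platelets to injured vessels. Its signals were 65.0, 199 and 47.5 in deficient and 104, 224 and 99.3 in proficient cells of litters 1, 2 and 3. Deficient cells were lower in each litter, at 0.622, 0.885 and 0.479 of their litter mates. This was the opposite of Pf4 and of the main probe set of Selp. The groups overlapped because both arrays of litter 2 were high. The log2 difference was -0.46 (95% interval -0.96 to 0.03) and was not called (limma, adjusted p = 0.479). By their main probe sets, the 2 alpha granule genes Selp and Vwf thus went opposite ways in every litter, a contrast that was not tested. The third Selp probe set, however, was lower in litter 2 (ratio 0.866), as Vwf was.

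**Figure D2:**
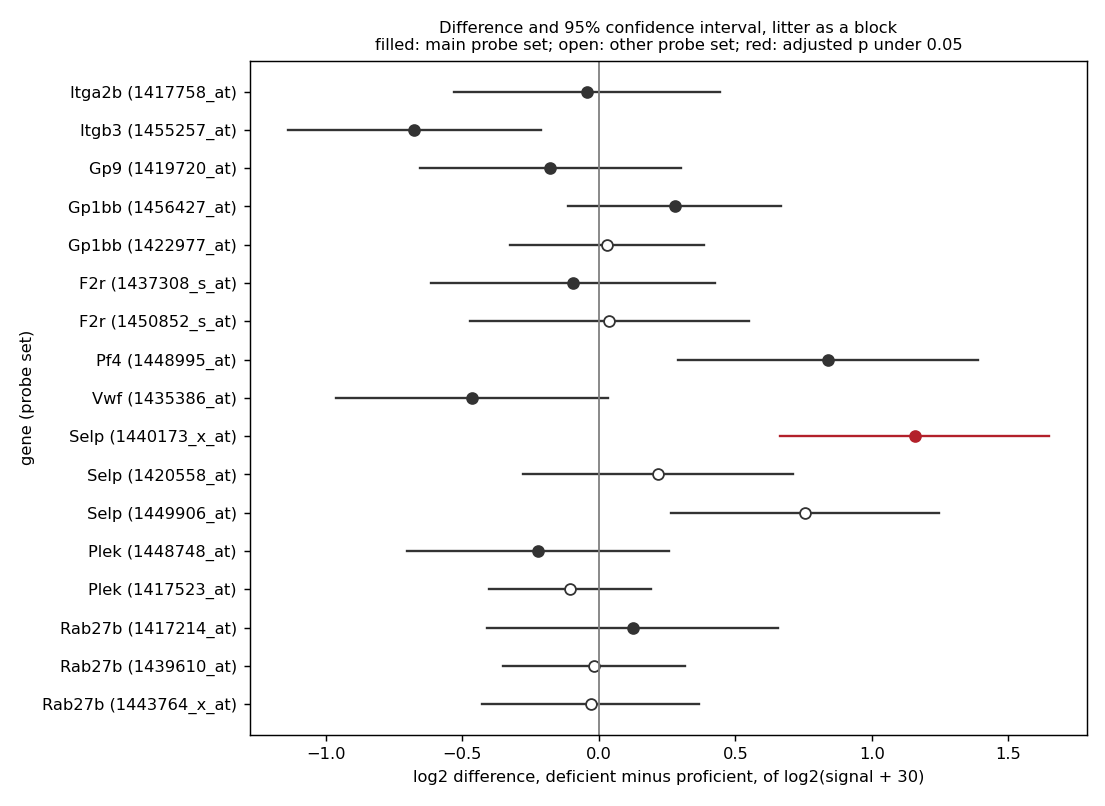
Log2 difference (deficient minus proficient) of the 17 tested probe sets of the 10 genes with 95% confidence intervals from limma with litter as a block; filled points are main probe sets and the red one was called. The intervals of Selp (2 of 3 probe sets), Pf4 and Itgb3 exclude 0 before adjustment, and only the main probe set of Selp was called.

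The αIIbβ3 integrin is made of 2 chains, and their genes differed in pattern. Itgb3, the β3 chain that also pairs with αv, had signals of 55.7, 55.1 and 45.3 in deficient and of 94.7, 120.1 and 89.8 in proficient cells of litters 1, 2 and 3. Every deficient array was below every proficient one, which held for 4.89% of all tested probe sets. Group means were 52.1 ± 5.84 and 102 ± 16.3 (SD, n = 3 each), and within litters the ratio was 0.589, 0.459 and 0.504. The log2 difference of -0.68 (95% interval -1.14 to -0.21) was not called (limma, adjusted p = 0.202). An exact two-sided permutation test of the arrays gave p = 0.1, the smallest value that 3 against 3 can give. The same permutation test gave p = 0.2 for the main probe set of Selp, p = 0.1 for the second Selp probe set and p = 0.5 for Pf4. A second Itgb3 probe set was at the floor on all 6 arrays.

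Itga2b, the αIIb chain, known as CD41 and among the first megakaryocyte genes to appear in progenitors, did not show that pattern. It had signals of 205, 268 and 211 in deficient and of 156, 394 and 203 in proficient cells. Deficient cells were higher in litters 1 and 3 and lower in litter 2, and the deficient values all fell within the proficient range. The log2 difference was -0.04 (95% interval -0.53 to 0.45; limma, adjusted p = 0.957). Its sign turned with median centring (0.048) and without litter 2 (0.19).

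Gp9 and Gp1bb encode small subunits that the glycoprotein Ib complex needs to reach the surface. Gp9 had signals of 75.6, 58.4 and 71.4 in deficient and of 62.1, 94.9 and 88.8 in proficient cells, higher in litter 1 and lower in litters 2 and 3. Its log2 difference was -0.18 (95% interval -0.66 to 0.30; limma, adjusted p = 0.797). Gp1bb had signals of 68.7, 59.3 and 33.9 in deficient and of 30 (the floor), 43.8 and 41.3 in proficient cells by its main probe set. It was higher in litters 1 and 2 and lower in litter 3, with a log2 difference of 0.28 (interval -0.11 to 0.67; limma, adjusted p = 0.617). The second Gp1bb probe set had signals of 33.2, 63.0 and 40.3 against 30, 51.9 and 48.6, with the same direction as the main one in each litter and a log2 difference of 0.03. Neither subunit gene was called, and the intervals given here for both genes include 0.

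F2r encodes PAR1, a receptor that thrombin activates by cleavage. Mouse platelets rely on the related F2rl2 and F2rl3 products instead, while F2r is used by other cells. F2rl3 was at the floor on 5 arrays and F2rl2 on 3. Its main probe set had signals of 2691, 3522 and 1872 in deficient and of 2097, 3489 and 2960.2 in proficient cells of litters 1, 2 and 3. Deficient cells were higher in litter 1, about level in litter 2 (ratio 1.01) and lower in litter 3 (0.632). The second probe set followed the same order of ratios, 1.55, 1.12 and 0.626. The log2 differences were -0.09 (95% interval -0.61 to 0.42) and 0.04 (interval -0.47 to 0.55), with adjusted p of 0.913 and 0.962 in limma. Without litter 3 that of the main probe set turned to 0.18.

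Plek and Rab27b act inside the platelet. Plek encodes pleckstrin, the main protein that protein kinase C phosphorylates in activated platelets. Its main probe set had signals of 288, 97.8 and 170.2 in deficient and of 314, 98.5 and 264 in proficient cells, so that the deficient array was lower in each litter but by under 1% in litter 2 (ratio 0.993). The log2 difference was -0.22 (95% interval -0.70 to 0.26; limma, adjusted p = 0.755). Both other Plek probe sets lay at or near the floor, with no signal above 46.4, and 1 of them was tested.

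Rab27b encodes a small GTPase of granule secretion and proplatelet formation. Its main probe set had signals of 365, 117 and 80.6 in deficient and of 217, 90.7 and 137 in proficient cells. Deficient cells were higher in litters 1 and 2 and lower in litter 3, with a log2 difference of 0.12 (95% interval -0.41 to 0.66; limma, adjusted p = 0.887). Without litter 1 the sign turned (-0.15). Of its other 3 probe sets, 1 was at the floor on all 6 arrays and the tested 2 had log2 differences of -0.02 and -0.03.

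**Figure D3:**
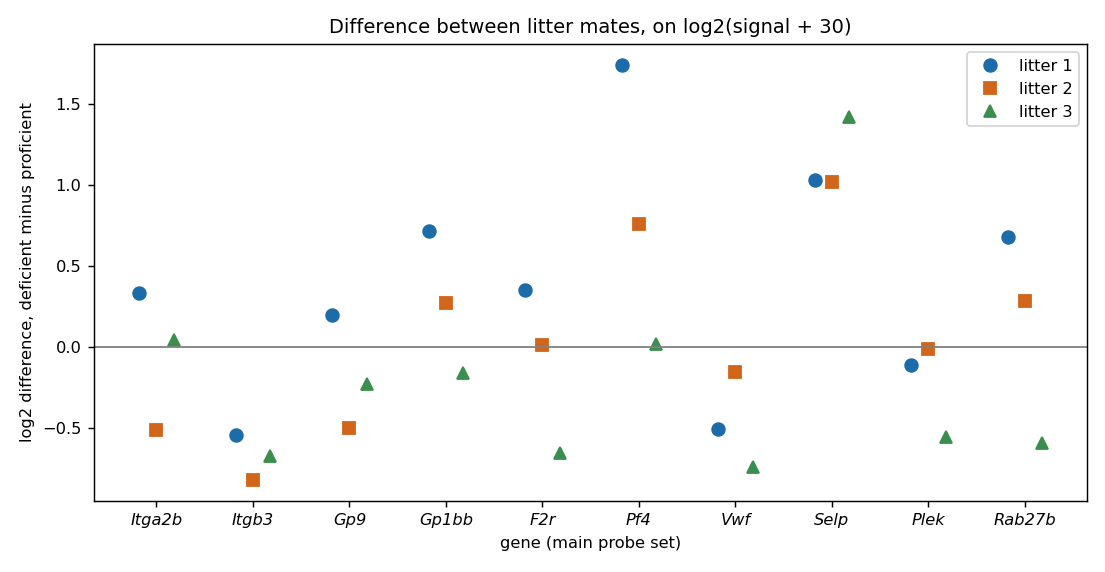
Log2 difference between the deficient and the proficient array of each litter (points, 1 per litter) for the main probe sets of the 10 genes. All 3 litters lie above 0 for Selp and Pf4 and below 0 for Itgb3, Vwf and Plek, and the litters lie on both sides of 0 for the other 5 genes.

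Signals of the members also differed between litters. Litter 2 had the highest mean of 7 members, among them Pf4, Vwf, Selp, Itga2b and Itgb3, while Plek and Rab27b were lowest there and highest in litter 1. The median difference of the members was 0.35 in litter 1, 0.003 in litter 2 and -0.39 in litter 3. Over the main probe sets of all genes tested these medians were 0, -0.05 and 0. Deficient cells were higher for 7, 5 and 3 of the 10 genes in litters 1, 2 and 3, against 48.3%, 42.4% and 41.6% of all genes. Of the 10 genes, 2 were higher and 3 lower in all 3 litters, where the shares of all genes were 12.6% and 17.9%. The control of litter 3 carried 1 truncated allele, unlike the other controls, and this cannot be told apart from other features of that litter. Sign flips of 3 litter differences cannot give an exact p under 0.25.

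Other genes of megakaryocytes and platelets were described from lists by role. Of 96 such genes, 85 had a probe set of their own, 74 were tested, and 31 were above and 43 below 0 in their log2 difference. The median was -0.06. With litter as a block 1 rose and 2 fell, 4.05% of the 74, where 1.11% of the main probe sets of all genes were called (0.514% higher and 0.597% lower); without a litter term the count was 0. All 3 called genes came from the lists on granules. Slc35d3, a transporter-like protein needed for platelet dense granules, fell: its signals were 283, 54.4 and 69.3 in deficient and 665, 201 and 377 in proficient cells (log2 difference -1.55, standard error 0.24; limma, adjusted p = 0.00144). Mmrn1, the alpha granule protein multimerin that binds factor V, fell from 240, 134 and 98.8 in proficient to 79.7, 54.5 and 36.2 in deficient cells (log2 difference -1.07, standard error 0.23; limma, adjusted p = 0.0266). F13a1, the A subunit of coagulation factor XIII, which monocytes and macrophages also make, rose from 161, 493 and 779 to 338, 1532 and 1311 (log2 difference 1.08, standard error 0.23; limma, adjusted p = 0.0220).

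Each of these 3 differences had the same direction in all 3 litters, and none was called when a litter was left out. F13a1 rose where the granulocyte and monocyte list was also higher, and the part of those genes in it was not tested. Slc35d3 and Mmrn1 fell where 9 genes of stem and progenitor cells summed to 3312 to 7623 in deficient and 4173 to 8506 in proficient cells, lower in the deficient array of each litter. Of those 9 genes, 6 were below 0 in their log2 difference, and Flt3, Procr and Hlf were called lower. The other 3, Gata2 (0.50), Slamf1 (0.36) and Mecom (0.15), were above 0 and not called. The part of these 9 genes in the differences of Slc35d3 and Mmrn1 was not tested. All 6 tested genes of the mast cell and basophil list were above 0, and Hdc, the histamine-making enzyme, rose.

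**Figure D4:**
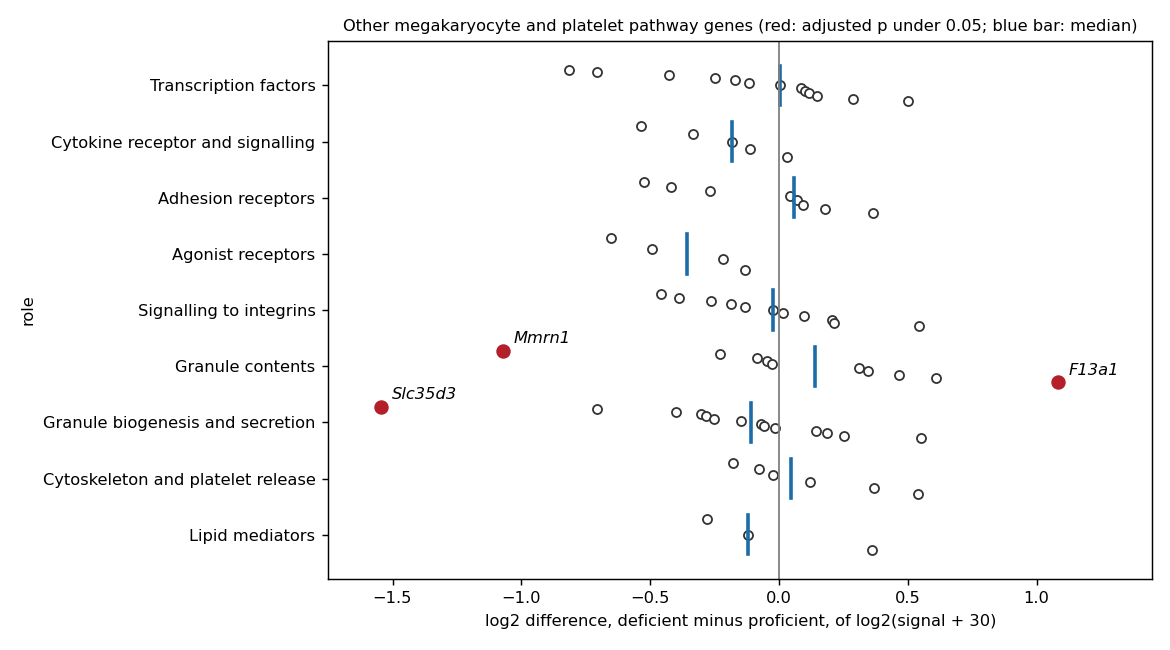
Log2 difference (deficient minus proficient) of 74 other megakaryocyte and platelet genes by role, with called genes in red and the median of each role as a blue bar. The called genes Slc35d3 and Mmrn1 lie below 0 and F13a1 above 0, and the medians of the roles lie between -0.36 and 0.14.

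In the other roles no gene was called, and the genes with the smallest p are given. Among transcription factors, 7 of 13 were above 0; Meis1, a stem cell factor, averaged 418 ± 210.3 in the deficient group and 717 ± 202 in the other, and Gfi1b, a repressor needed for platelets and red cells, 59.2 ± 18.1 and 118 ± 38.9 (SD, n = 3 each). Gata1, the master factor of megakaryocytes and red cells, had a log2 difference of -0.17. That of Gata2 was 0.50, and that of Fli1, an ETS factor of platelet genes, was 0.29. All 4 tested agonist receptor genes were below 0, with a median of -0.36. Ptger3, a prostaglandin E receptor, averaged 229 ± 83.4 and 379 ± 147, and Tbxa2r, the thromboxane receptor, 42.2 ± 7.59 and 77.4 ± 46.6 (SD, n = 3 each). Tbxa2r was highest on the proficient array of litter 2 (130), was higher in deficient cells in litter 3, and was at -0.10 without litter 2. The other 2 genes, F2rl2 and P2rx1, were at the floor on 3 arrays and 1 array. P2ry1 and P2ry12, the ADP receptors of platelets, were at the floor on all 6 arrays. Of cytokine receptor and signalling genes 4 of 5 were below 0, with log2 differences of -0.53 for Kit and -0.33 for Stat5b.

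Among adhesion receptors 3 of 8 were below 0, including Esam (log2 difference -0.52) and Pear1 (-0.42), and Gp5, the fourth subunit of the glycoprotein Ib complex, was at 0.09. Signalling to integrins had 5 of 11 above 0; Rap1b, the GTPase that switches on αIIbβ3, averaged 3311 ± 403 in the deficient group and 2257 ± 241 in the other (SD, n = 3 each), and Prkcd was at -0.46. In the cytoskeletal group, Actn1 was at 0.54 and Myh9, the heavy chain of platelet myosin, at 0.37, while Tubb1, the platelet tubulin, was at the floor on 4 arrays. Among lipid mediator genes Pla2g4a was at 0.36 and Tbxas1, thromboxane synthase, at -0.28. Of genes of late megakaryocytes, Gp6 was at the floor on 5 arrays and Ppbp on 3. Gp5, Gp9 and Pf4 of the same marker list were above the floor on every array.

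Of the megakaryocyte and platelet marker list, 3 of 8 tested genes were above 0 and 5 below, with a median log2 difference of -0.11. Its summed signal includes Pf4. Without Pf4, a sum chosen after seeing the data, the list came to 611, 615 and 525 in deficient and 486, 997 and 562 in proficient cells of litters 1, 2 and 3.

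**Figure D5:**
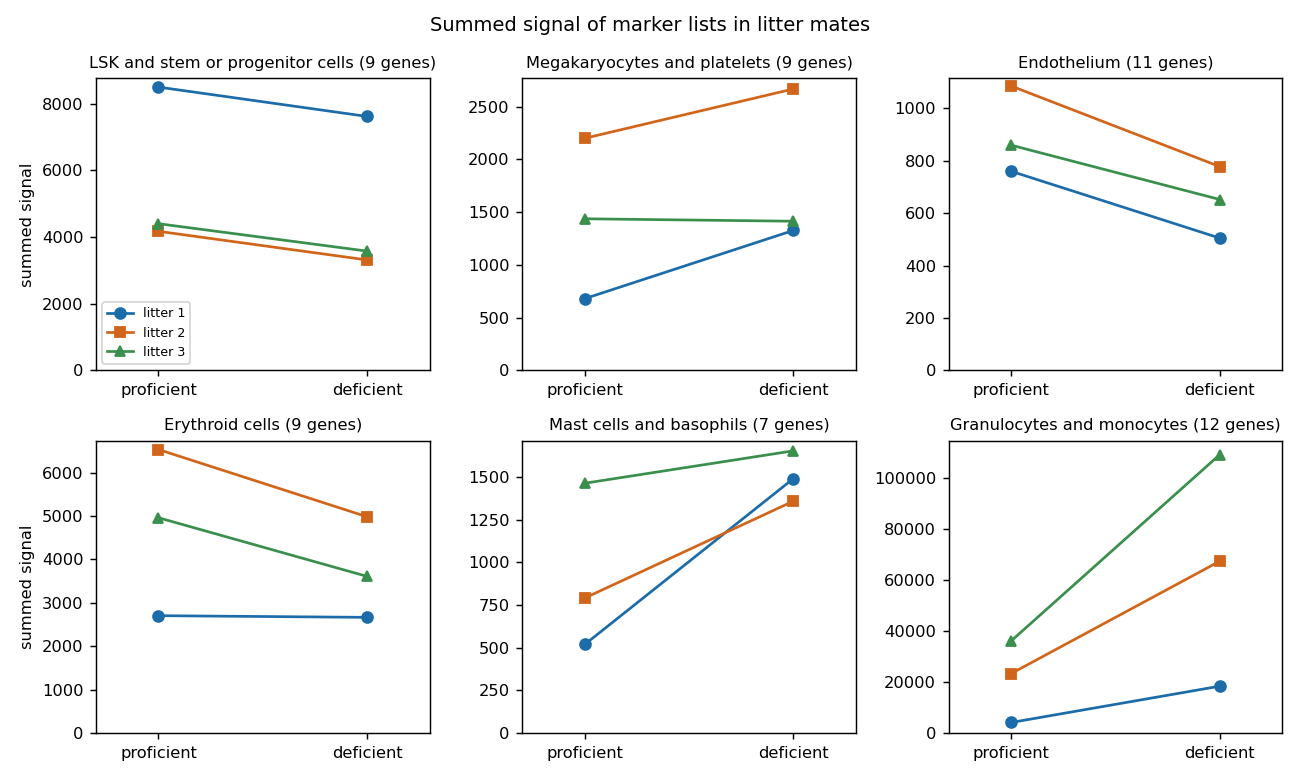
Summed signal (linear axis from 0) of marker lists of 6 cell types on the proficient and the deficient array of each litter, joined by a line per litter. The megakaryocyte and platelet list was 1327 to 2669 in deficient and 679 to 2201 in proficient cells and higher in the deficient array of 2 litters, or of 1 litter without Pf4, whereas the granulocyte list was higher in all 3 and the endothelial list lower in all 3.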

How the data were processed

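Per the labels' protocols, 2 rounds of linear amplification preceded hybridisation of each LSK sample to its own Affymetrix mouse array. Per the submitters' processing notes MAS5 was used, and the deposited numbers are signal intensity on a linear scale. For its version, its scaling target and the origin of the floor of 30 the sources used here give nothing. Amplification favours 3′ ends, and the floor hides differences among weak probe sets.

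Signals were analysed as log2(signal + 30), which understates changes of weak genes. After removal of 64 controls, the 22519 probe sets whose mean signal reached the median (32.6) were tested with limma 3.58.1 in R 4.3.3 (lmFit, eBayes with a variance trend), with group and litter as terms. The labels call arrays of the same number litter mates; their deviations from group means correlated with r = 0.77, 0.67 and 0.46 in litters 1, 2 and 3. Because samples may hold 1 or more mice, p-values cover only the spread between these arrays, which may be technical. The fit was tested on simulated data. Alternatives were no litter term, quantile normalization, median centring, pseudocounts of 0 and 100, no filter, a filter at the 75th percentile, no variance trend, each litter left out, and averaging of all probe sets per gene.

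The members, lists and tests were chosen with earlier results of these data known. Named genes were the 10 members, Ercc1, the other pathway genes that passed and, in roles where none passed, the 2 with the smallest p; other genes named were chosen after their values were seen. Symbols are those of the platform annotation; members without a RefSeq promoter window, and listed genes without a probe set of their own (11), were not used here.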

Additional observations from a re-analysis of the deposited data

Results flagged for a closer look

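One probe set was left out of the member probe sets because it is annotated to both Septin5 and its neighbour Gp1bb. It counted among all tested probe sets, but its fitted difference is not given here. Its signals were 31.7, 38.3 and 53.5 on the deficient arrays of litters 1, 2 and 3, and at the floor of 30 on all 3 proficient arrays. It was singled out because its mean of 41.2 ± 11.1 (SD, n = 3) in deficient cells lay above the level of every control array. Groups that do not overlap, with the deficient one higher, were found for 2.3% of all tested probe sets. These values lie close to the floor, and the probe set cannot be assigned to either gene.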

How the results depend on the processing

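Without a litter term (no replicate block), limma called 0 of 22519 probe sets (579 at an unadjusted p under 0.05), hence 0 member probe sets higher and 0 other pathway genes higher and 0 lower. Counts were likewise 0 for all of these without the filter on mean signal (1825 at an unadjusted p under 0.05). With a litter left out in turn, each of these counts ranged from 0 to 0, with 1288, 1387 and 1705 probe sets at an unadjusted p under 0.05 without litters 1, 2 and 3. Median centring called 332 probe sets, 193 higher and 139 lower against 71 and 117 before, and 2 member probe sets higher, Selp and Pf4. With no variance trend 114 probe sets were called, 49 higher and 65 lower, and 0 other pathway genes higher; with quantile normalization 0 other pathway genes higher and 1 lower. No member was called lower under any alternative run. Selp was past the threshold under 6 of 12 alternatives, with a log2 difference from 0.71 (the average of its 3 probe sets) to 1.51. Itgb3 (-0.96 to -0.34, the latter averaged with its probe set at the floor) and Vwf (-0.64 to -0.29) kept their direction and were called under none of those run. Signs reversed for Itga2b with median centring (0.048) and without litter 2 (leave-one-out values -0.23 to 0.19), for Rab27b without litter 1 (-0.15 to 0.48) and for F2r without litter 3 (-0.32 to 0.18). None of these was called. Under the filter at the 75th percentile Itgb3, Gp9 and Gp1bb could not be tested. Signals near the floor limit what can be said of Gp1bb, Gp9 and Itgb3. The causes were not tested.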
